A study of Mus musculus with 89 samples.

Results

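Bone morphogenetic proteins (BMPs) and transforming growth factor beta (TGF beta) bind pairs of receptor kinases on the cell surface, which phosphorylate SMAD proteins that enter the nucleus with SMAD4 and change transcription. The genes switched on by this signal include its own brakes, and in the small intestine BMP signaling is known as a signal of the villus that is held low around the stem cells of the crypt. Described here are 8 genes of this response in the mouse jejunum. They are 3 Id genes (Id1, Id2 and Id3), which encode inhibitors of basic helix-loop-helix transcription factors and are classical targets of BMP signals; the inhibitory SMADs Smad6 and Smad7; Pmepa1, a TGF beta target whose membrane protein dampens the same signal; and the receptor genes Bmpr1a and Tgfbr2. They were chosen by name as a short list of response genes and receptors, with earlier results of these data known, and all 8 were found among the 27538 genes of the clump table and the 23379 genes of the table of single cells.

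The tissue was jejunum of male C57BL/6 mice, 3 months old in the labels apart from 3 plates of single cells labelled 4 months, with no transgene or treatment named for any group. EDTA dissociation was left incomplete so that small clumps of neighboring cells stayed together, and clumps were sorted by Hoechst DNA content as pairs of cells (4n, mice 1 to 5) or as larger clumps (mice 1, 4 and 5). Single cells of mice 1 to 4, numbered separately, were sorted as Epcam+ cells by the study's methods, in part with a CD24 gate. The plate labels read Epcam, onlyEpcam, CD24, CD45Epcam, CD54Epcam, EpcamLow_Cd24high or Epcam_Cd24low, and some plates have no such label. The study's methods also describe a gate against CD45 that was dropped to enrich tuft cells, and the labels do not say on which of the plates named onlyEpcam or CD24 it was used. Both kinds of well were read by MARS-seq, which counts the 3' ends of transcripts by unique molecular identifiers (UMIs), and levels below are CPM, counts over the summed wells of a mouse scaled to a total of 1000000 UMIs.

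Each of 5883 clumps was assigned to a zone (crypt, 3274 clumps, mid-villus, 1813, or villus tip, 796) from published enterocyte landmark genes, 66 of 70 of which were in the table and none of which is 1 of the 8 genes. The tip landmarks summed to 33365 to 64768 CPM at the tip and 1709 to 3759 CPM in the crypt, where the crypt landmarks had 16193 to 30484 CPM against 1168 to 6898 CPM at the tip. The sum of a mouse held 348722 to 18876318 UMIs in the crypt, 195080 to 2769766 in the mid-villus and 77747 to 742534 at the tip, so that tip values rest on the fewest molecules, and mouse 4 and mouse 5 had 34 and 68 tip clumps. Less RNA per cell and fewer cells of a type in a clump cannot be told apart in these sums.

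Of the 8 members, 5 had an entry in the RefSeq promoter table of build GRCm38.p6 (Id2, Id3, Smad6, Bmpr1a and Tgfbr2). Stretches of Id2 and Bmpr1a upstream of their RefSeq start (base 25096092 on chromosome 12 and base 34502546 on chromosome 14), outside annotated exons but inside the longer GENCODE gene spans given below, are shown because the levels of these genes across mice and zones were the most alike among the members (Pearson r = 0.823 over 15 sums that share their libraries and depth) and because each holds the letters GGCGCC, a GC-rich sequence of the kind bound by BMP-activated SMADs. The capitals mark GGCGCC, both stretches are read on the minus strand, and they lie at chr12:25096254-25096342 for Id2 and at chr14:34502688-34502796 for Bmpr1a.
Id2: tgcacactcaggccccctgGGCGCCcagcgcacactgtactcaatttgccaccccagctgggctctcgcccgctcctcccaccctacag
Bmpr1a: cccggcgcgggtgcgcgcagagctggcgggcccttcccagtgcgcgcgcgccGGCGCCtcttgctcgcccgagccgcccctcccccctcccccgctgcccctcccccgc
The letters are the same on both strands, and 9.59% of 32851 promoter windows of 250 bases hold them (3149 windows). They were not in the windows of Id3, Smad6 and Tgfbr2. Mouse 5 had the lowest level of both Id2 and Bmpr1a in every zone, from 4, 2 and 0 UMIs of Id2 and 7, 1 and 0 of Bmpr1a. Each was more like a gene outside the members (r = 0.971 for Id2 and 0.966 for Bmpr1a). Whether the letters bear on the likeness was not tested. A longer palindrome, GTCTAGAC, to which SMAD3 and SMAD4 bind, was in 0.167% of the windows (55) and in none of the 5 members' windows.

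The question of the clump comparison was how the response genes are distributed along the crypt-villus axis. Pmepa1 and Smad7 rose at the villus tip, Smad7 rose already in the mid-villus, and neither the Id genes nor Bmpr1a passed the test between zones in the fit without a term for the mouse. Relative to the crypt, 2 of the 6 members tested were higher at the tip and none was lower, where 24.3% of the 6993 genes tested were higher and 30.9% lower (55.3% changed in all). The median log2 fold change of the 6 members was 0.57, against −0.10 over all genes tested. Smad6 and Tgfbr2 had too few UMIs for the count filter. Tests are edgeR quasi-likelihood tests over mice with Benjamini-Hochberg adjustment over all genes tested.

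Pmepa1, on chromosome 2 (173224458 to 173276533, minus strand, GRCm38), showed the steepest step. In the crypt it was at 5.14, 11.4, 8.29, 9.80 and 2.87 CPM in mice 1 to 5, and in the mid-villus at 4.69, 5.61, 13.7, 11.0 and 5.13 CPM. At the tip it was at 210.9, 184.8, 241.1, 129.0 and 128.6 CPM, from 45, 75, 179, 13 and 10 UMIs. Every tip value lay above every crypt and mid-villus value, a separation that 31% of all genes tested had between tip and crypt and 8.61% had between tip and mid-villus. The tip exceeded the crypt 29.9-fold (log2 4.90 ± 0.34 SE, n = 5 mice, edgeR adjusted p = 8.6e-09) and exceeded the mid-villus by 4.71 ± 0.36 on the log2 scale (adjusted p = 8.1e-08). Pmepa1 passed the count filter only because of its tip sums, so that it was tested at all is not independent of these differences. Between mid-villus and crypt the log2 difference was 0.19 ± 0.36, with a 95% interval of −0.56 to 0.95 and an adjusted p of 0.71.

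Smad7, whose protein blocks the receptors and marks them for degradation, rose in steps. It was at 8.30, 20.2, 12.8, 8.85 and 20.1 CPM in the crypt, at 34.7, 28.0, 43.7, 12.8 and 25.6 CPM in the mid-villus, and at 46.9, 66.5, 82.2, 89.3 and 103 CPM at the tip. All 5 mice had the order crypt, mid-villus, tip, and the tip values did not overlap with those of either other zone, whereas mid-villus and crypt overlapped through mouse 4 (25.1% of all genes had no overlap there). The tip was 7.75-fold above the crypt (log2 2.95 ± 0.38, adjusted p = 2.5e-06) and 1.59 ± 0.36 above the mid-villus on the log2 scale (adjusted p = 0.0062), which fell short of the threshold when zones were set by z scores of landmark shares (1.16, adjusted p = 0.054). From crypt to mid-villus Smad7 rose by 1.36 ± 0.36 (log2, adjusted p = 0.0043), in a comparison in which 18% of all genes were higher, 24.6% lower and 42.6% changed. That step did not pass without mouse 1 (log2 1.08, adjusted p = 0.054), without mouse 3 (0.97, 0.12), in pairs alone (0.94, 0.068) or with mouse 6 added (0.85, 0.073). Between mid-villus and crypt the adjusted p was 0.30 for Id1, 0.43 for Id2, 0.57 for Id3 and 0.40 for Bmpr1a, at log2 differences of 0.20 to 0.40. Between tip and mid-villus, 7.38% of all genes were higher and 7.91% lower (15.3% changed), and Pmepa1 and Smad7 were the 2 members of 6 that passed.

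**Figure D1:**
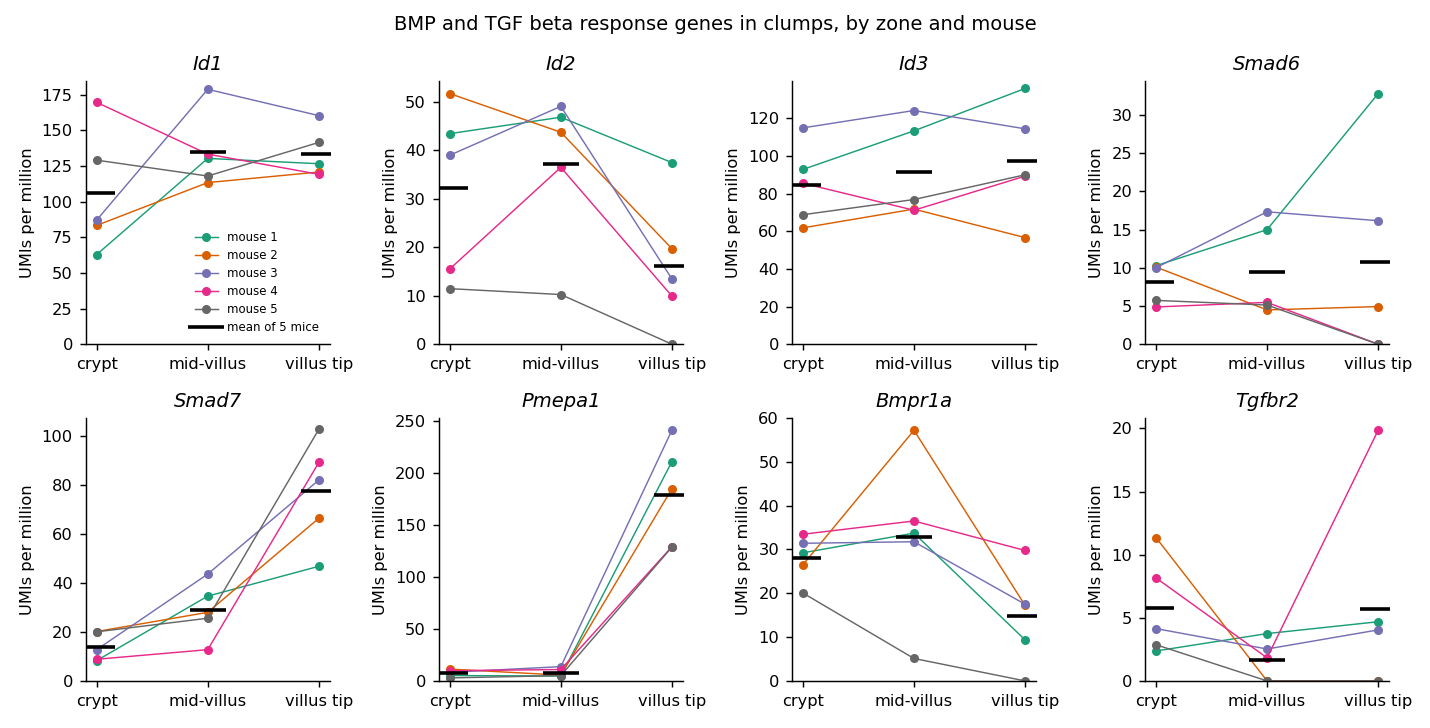
Level of each of the 8 genes (y axis, CPM) in crypt, mid-villus and villus tip clumps (x axis), 1 line per mouse and a black bar for the mean of 5 mice. Pmepa1 sits between 2.87 and 13.7 in crypt and mid-villus and between 128.6 and 241.1 at the tip, Smad7 climbs in both steps in all 5 mice, and the other genes overlap between zones.

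The Id genes had a flatter profile. Id1 (chromosome 2, 152736251 to 152737410) was at 62.8, 83.3, 87.0, 170 and 129 CPM in the crypt, at 130, 113, 179, 133 and 118 CPM in the mid-villus and at 127, 121, 160, 119 and 142 CPM at the tip. Tip and crypt ranges overlapped, with crypt values of 170 and 129 CPM in mice 4 and 5, and 4 of 5 mice were higher at the tip. The tip exceeded the crypt by 0.64 ± 0.31 on the log2 scale (95% interval −0.0049 to 1.28, adjusted p = 0.085), and the call passed without mouse 4 (0.80, adjusted p = 0.039) or mouse 5 (0.87, 0.031). With a term for the mouse, which compares zones within each animal, Id1 passed at the tip (0.80 ± 0.24, adjusted p = 0.0033) and in the mid-villus (0.52 ± 0.21, adjusted p = 0.034).

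Id3 (chromosome 4, 136143497 to 136145755) ranged from 61.8 to 115 CPM in the crypt, from 71.2 to 124 CPM in the mid-villus and from 56.7 to 136 CPM at the tip. Its zones overlapped fully and 3 of 5 mice had more at the tip than in their crypt (log2 0.51 ± 0.27, 95% interval −0.04 to 1.06, adjusted p = 0.11). With the term for the mouse the adjusted p was 0.037 at a log2 difference of 0.50 ± 0.21. Scaling by library totals, chosen after seeing the data, lowered the tip-to-crypt median of all genes by 0.39 on the log2 scale, and gave 0.32 for Id1 (adjusted p = 0.40) and 0.17 for Id3 (0.67) without that term.

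Id2 (chromosome 12, 25093799 to 25097140, minus strand) ran the other way. It was at 43.5, 51.7, 39.0, 15.5 and 11.5 CPM in the crypt and at 46.9, 43.8, 49.1, 36.5 and 10.3 CPM in the mid-villus. At the tip it was at 37.5, 19.7, 13.5, 9.93 and 0 CPM. All 5 mice were lowest at the tip, but mouse 5 was low in every zone and mouse 1 stayed high at the tip, so the ranges overlapped. Neither tip against crypt (log2 −0.47 ± 0.46, adjusted p = 0.41) nor tip against mid-villus (−0.84 ± 0.46, adjusted p = 0.23) passed, and with the term for the mouse the second did (−0.98 ± 0.35, adjusted p = 0.027).

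Bmpr1a (chromosome 14, 34410734 to 34503341, minus strand), which encodes a type I BMP receptor, was at 29.2, 26.5, 31.4, 33.5 and 20.1 CPM in the crypt and at 33.7, 57.2, 31.8, 36.5 and 5.13 CPM in the mid-villus. Its tip values of 9.37, 17.2, 17.5, 29.8 and 0 CPM came from 2, 7, 13, 3 and 0 UMIs. The tip was the lower zone in 5 of 5 mice against the crypt, with ranges that overlapped through mouse 4, and the test did not pass (log2 −0.50 ± 0.41, 95% interval −1.35 to 0.35, adjusted p = 0.31). Tip against mid-villus gave −0.85 ± 0.41 (adjusted p = 0.17), and for Id1 and Id3 the same comparison gave 0.24 (0.67) and 0.31 (0.47).

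Tgfbr2 (chromosome 9, 116084293 to 116175360, minus strand), the type II receptor that binds TGF beta, stayed between 2.37 and 11.4 CPM in the crypt and between 0 and 3.75 CPM in the mid-villus. At the tip it had 6 UMIs in all, and mice 2 and 5 were at 0. Smad6 (chromosome 9, 63953076 to 64022059, minus strand) had 4.87 to 10.3 CPM in the crypt and 0 to 32.8 CPM at the tip, where 7, 2 and 12 UMIs were counted in mice 1 to 3 and none in mice 4 and 5. With the filter lowered to 3 counts, neither gene passed in any of the 3 comparisons of zones. The lowest adjusted p was that of Tgfbr2 in the mid-villus against the crypt (log2 −1.50 ± 0.65, edgeR adjusted p = 0.072), from 12 UMIs with a mean of 1.62 CPM against 182 UMIs with a mean of 5.78 CPM, lower in 4 of 5 mice. At the tip Smad6 gave 0.83 ± 0.56 against the crypt (adjusted p = 0.24) and Tgfbr2 −0.39 ± 0.79 (0.71).

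**Figure D2:**
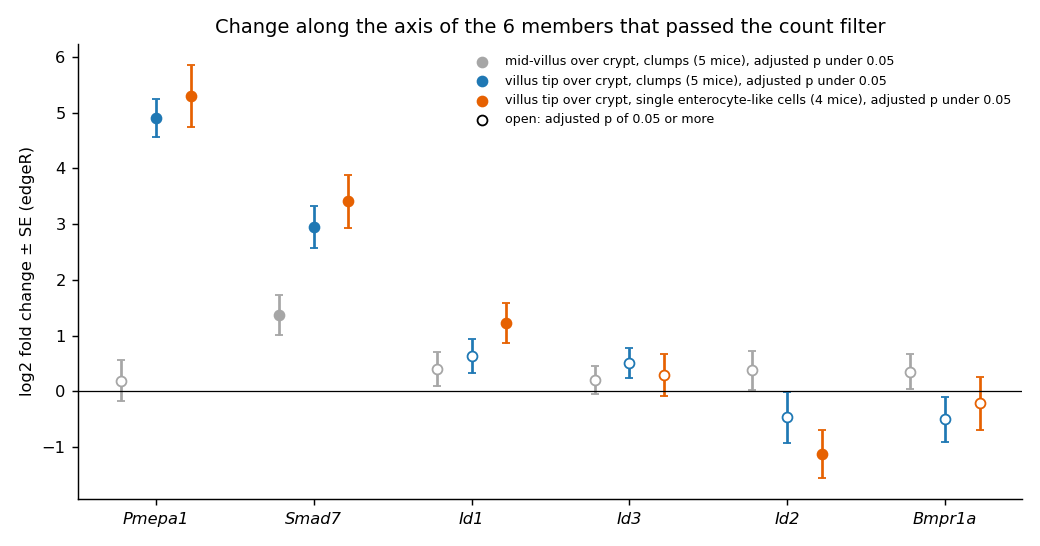
Log2 fold change with its SE (y axis) of the 6 members that passed the count filter (x axis), with filled points for an adjusted p under 0.05. The 3 series are mid-villus over crypt clumps, tip over crypt clumps, and tip over crypt in single enterocyte-like cells, described below. Pmepa1 is filled at 4.90 in tip clumps and 5.30 in single cells, and Smad7 at 1.36, 2.95 and 3.41 in the 3 series. Id1 (1.23) and Id2 (−1.13) are filled in single cells only, and all points of Id3 and Bmpr1a are open.

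Other cell types were present in the clumps and moved with zone. Goblet cell markers had a median of 1368 CPM in the crypt, 1537 CPM in the mid-villus and 3454 CPM at the tip, and Paneth markers had 4371, 322 and 367 CPM. Myeloid markers had medians of 171 CPM in the crypt (4896 UMIs), 10.3 CPM in the mid-villus (60 UMIs) and 4.69 CPM at the tip (12 UMIs). Tuft markers had 219, 128 and 103 CPM, and enteroendocrine markers 96.0, 56.0 and 67.3 CPM. Without clumps that held 10 or more UMIs of a secretory marker list, the tip-to-crypt log2 difference was 5.24 for Pmepa1 and 3.18 for Smad7. The lymphocyte list summed to 1.58 to 430 CPM in the crypt, 9.13 to 30.8 CPM in the mid-villus and 0 to 51.4 CPM at the tip. Of its 28 UMIs at the tip 12 were Ccl5 and 4 Gzma, and 8 of 18 measured markers were at 0 there, among them Ptprc, Cd3e, Cd3d and Cd3g. These 4 had only 20, 9, 4 and 15 UMIs in the deeper crypt sums, so their zeros at the tip say little. Trac, Trbc1 and Cd8a had 2 UMIs each at the tip, and 12, 18 and 25 in the crypt. Ccl5 had 12 of 1540343 UMIs at the tip and 169 of 25444768 in the crypt. Without clumps with 2 or more immune or stromal marker UMIs the difference was 5.18 for Pmepa1 and 2.97 for Smad7.

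A finer position was read from the share of tip landmarks among tip and crypt landmark UMIs of a clump, in 5 bins of equal width. Pmepa1 had means of 8.66, 3.01, 5.48 and 8.00 CPM in the first 4 bins and 97.3 ± 17.0 CPM (SD, n = 5 mice) in the last, where the mice lay between 78.4 and 115 CPM. No mouse exceeded 30.6 CPM in an earlier bin, so its step fell in the last bin. Smad7 had means of 12.1, 23.7, 22.6 and 23.3 CPM and then 67.0 ± 8.55 CPM. The mean of its second bin was carried by mouse 5 at 55.6 CPM, from 4 UMIs, with the other mice at 12.9 to 19.9 CPM. Id1 climbed by small amounts, with means of 106, 108, 114, 124 and 143 CPM, each within the spread of the next. Id2 means were 34.4, 34.0, 33.2, 32.3 and 27.6 CPM. The last bin is wider than the tip zone, with 1463 clumps against 796.

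**Figure D3:**
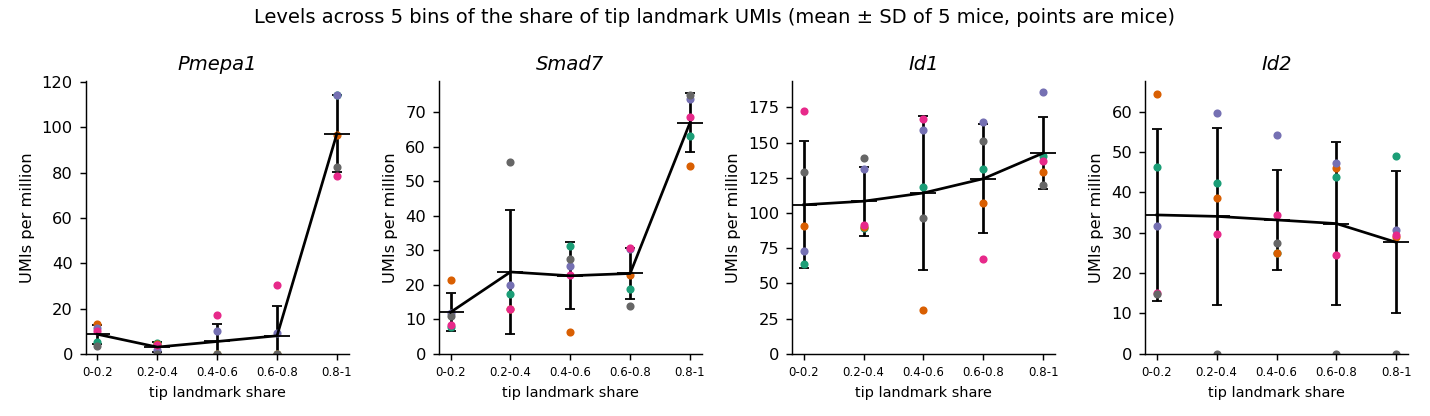
Level (y axis, CPM) in 5 bins of the tip landmark share of a clump (x axis), as mean ± SD of 5 mice with a point for each mouse. Pmepa1 stays at or under 30.6 in every mouse until the last bin and has a mean of 97.3 there, and Smad7 has its highest value in the last bin in all 5 mice, with a mean of 67.0.

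Among all genes tested apart from landmarks, those with the pattern most like a member over the 15 sums of log2 CPM were Pgm1 (Pearson r = 0.974), Gm14085 (0.974) and Cerk (0.962) for Pmepa1, and Oas3 (0.952), Efhd2 (0.94) and Trim40 (0.932) for Smad7. Id2 was most like Ppcs (0.971), Bmpr1a most like Ddx50 (0.966), Id1 most like Ptprf (0.873) and Id3 most like Atxn2l (0.866). Pmepa1 and Smad7 had r = 0.796 with each other. The 15 sums share depth and mouse, and these values are descriptions.

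The rest of the pathway was taken from lists of 80 genes with the members included, of which 75 were measured in clumps and 24 passed the filter. From crypt to tip 9 of the 24 were higher and 3 lower, and over all 6993 genes 1701 were higher and 2163 lower. The median log2 difference was 0.58 for the listed genes. Ligands were scarce: 1 of 8 BMP ligands and none of 8 TGF beta and activin ligands measured could be tested. Bmp2, the tested BMP ligand, rose from 6.67 to 21.3 CPM (log2 2.45 ± 0.64, adjusted p = 0.0030) and had reached 21.8 CPM in the mid-villus (2.05 ± 0.56, adjusted p = 0.0058). Nbl1, a secreted BMP antagonist, rose from 10.3 to 30.2 CPM at the tip (1.85 ± 0.64, adjusted p = 0.019).

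Of the 9 listed genes that rose at the tip, 4 were intracellular inhibitors of the signal. Of 10 such inhibitors listed 6 were tested, of which 4 were higher at the tip, Pmepa1 and Smad7 among them, and none was lower, where 24.3% of all genes were higher and 30.9% lower. The other 4 (Smad6, Smurf1, Tgif1 and Tgif2) did not reach the count filter. Tgif1, a corepressor of TGF beta targets, had a mean of 12.9 CPM in the crypt (431 UMIs), 1.62 CPM in the mid-villus (12 UMIs) and 1.87 CPM at the tip (2 UMIs), and with the filter lowered to 3 counts it was lower at the tip (−3.13 ± 0.93, adjusted p = 0.0079) and in the mid-villus (−2.72 ± 0.61, adjusted p = 0.0011) than in the crypt. Tgif2 had 70 UMIs in the crypt and none in the other zones. Skil, a corepressor that binds SMADs and is itself induced by TGF beta, rose from 16.4 CPM in the crypt to 34.2 CPM in the mid-villus and 98.0 CPM at the tip (tip against crypt log2 3.12 ± 0.50, adjusted p = 3.1e-05). Smurf2, a ubiquitin ligase that works with SMAD7, went from 21.2 to 27.9 CPM (0.87 ± 0.32 on the log2 scale, adjusted p = 0.025). Among the 3 signal-carrying SMADs tested, Smad1, a BMP receptor substrate, fell from 42.6 to 17.1 CPM (−1.06 ± 0.31, adjusted p = 0.0068), and Smad5, which serves the same receptors, rose from 9.51 to 14.1 CPM (1.04 ± 0.43, adjusted p = 0.047).

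Further targets and partners also split. Cdkn1a, an inhibitor of the cell cycle, rose from 106 to 389 CPM (2.27 ± 0.39, adjusted p = 6.6e-05), and Klf10, an early TGF beta target, reached 32.3 CPM (0.97 ± 0.38, adjusted p = 0.037). Tgfbi, a secreted matrix protein induced by TGF beta, was highest in the mid-villus, at 187 CPM against 75.4 CPM in the crypt (1.43 ± 0.28, adjusted p = 3.0e-04) and 54.5 CPM at the tip, where it was lower than in the mid-villus (−1.51 ± 0.31, adjusted p = 0.0029). Both tested E proteins, the partners that ID proteins sequester, fell at the tip. Tcf3 went from 30.4 to 0.76 CPM (−4.22 ± 0.75, adjusted p = 9.1e-05) and Tcf12 from 21.3 to 7.57 CPM (−1.22 ± 0.45, adjusted p = 0.029).

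From crypt to mid-villus 6 of 24 listed genes were higher and 2 lower, where 42.6% of all genes changed, with Smad1 (−0.64) and Tcf3 (−1.24) as the lower ones. From mid-villus to tip 4 were higher and 3 lower, where 15.3% of all genes changed, with Skil at 1.80, Klf10 at 1.47 and Tcf3 at −2.98.

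**Figure D4:**
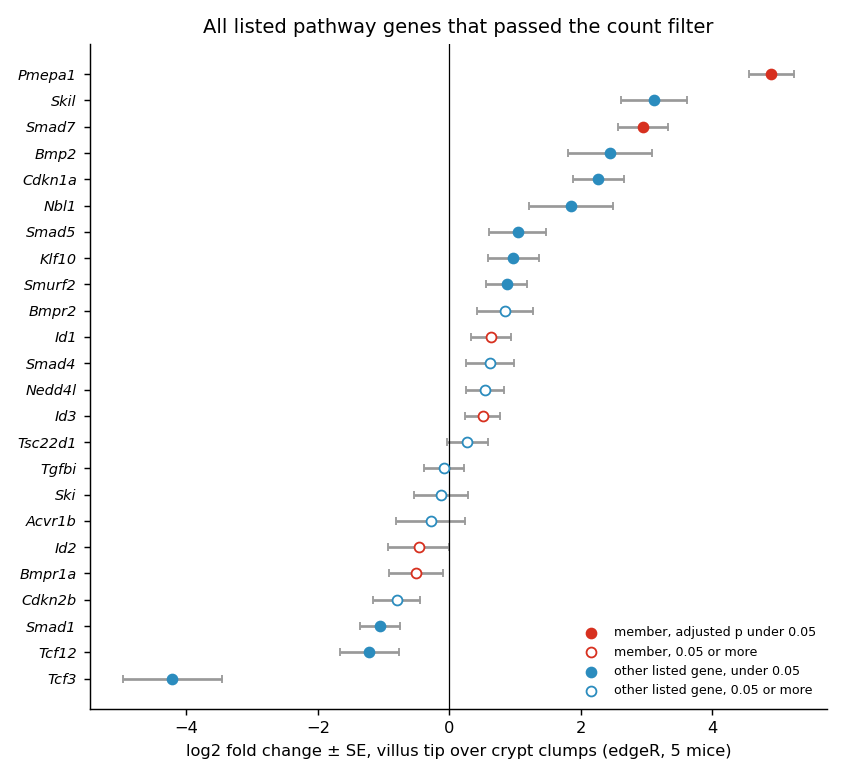
Log2 fold change with its SE (x axis) of tip over crypt clumps for the 24 listed genes that passed the count filter (y axis), members in red and other listed genes in blue, filled for an adjusted p under 0.05. Pmepa1 (4.90), Skil (3.12) and Smad7 (2.95) lie at the right end and Tcf3 (−4.22) at the left.

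The table of single cells gave the same axis in separate preparations. Clusters made without any of the listed genes gave 2555 enterocyte-like, 252 enteroendocrine-like, 211 goblet-like, 186 tuft-like and 1574 lymphocyte-like cells, and 421 cells of 1 cluster led by hemoglobin, immunoglobulin and myeloid genes stayed unnamed. Of the lymphocyte-like cells 909 came from plates labelled onlyEpcam and 634 from plates labelled CD24, and mouse 1 had none. Ptprc, which encodes CD45, had a mean of 712 CPM in lymphocyte-like cells, 241 CPM in tuft-like cells and at most 5.58 CPM in the other named types, and Epcam had 91.9 CPM in lymphocyte-like cells against 850 CPM in enterocyte-like cells. A gate against CD45 would remove cells like these lymphocyte-like ones, and whether it was used on their plates is not given in the labels. With the landmark rule, 374 enterocyte-like cells were given to the crypt, 740 to the mid-villus and 1389 to the tip.

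In these enterocyte-like cells 3 of the 6 members tested rose from crypt to tip and 1 fell, where 32.1% of 4284 genes tested were higher and 29% lower (61.2% changed). Pmepa1 was at 0, 5.71, 3.59 and 3.55 CPM in the crypt of mice 1 to 4, at 14.4, 1.56, 4.22 and 4.93 CPM in the mid-villus and at 72.5, 91.3, 34.6 and 141 CPM at the tip. All 4 tip values lay above every crypt and mid-villus value, and 39.4% of all genes had no overlap between tip and crypt (log2 5.30 ± 0.56, edgeR adjusted p = 1.7e-08). Here too Pmepa1 passed the count filter only because of its tip sums. Smad7 was at 0, 22.8, 7.17 and 7.10 CPM in the crypt, at 36.1, 42.1, 16.9 and 24.7 CPM in the mid-villus and at 53.8, 58.9, 36.5 and 66.5 CPM at the tip, again in the order crypt, mid-villus, tip in 4 of 4 mice (tip against crypt 3.41 ± 0.47, adjusted p = 1.0e-06). The crypt sum of mouse 1 held 14986 UMIs, so its values of 0 say little, and without mouse 1 both calls remained.

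Id1 had 0, 22.8, 57.4 and 53.3 CPM in the crypt and 27.6, 67.8, 55.7 and 78.8 CPM at the tip, and was 1.23 ± 0.36 higher at the tip in edgeR (adjusted p = 0.0043). Library totals in place of TMM, which moved the median of all genes by −1.09, gave 0.25 (adjusted p = 0.63). Id2 had 0, 68.5, 55.6 and 28.4 CPM in the crypt against 7.02, 16.2, 15.4 and 9.21 CPM at the tip (−1.13 ± 0.43, adjusted p = 0.027), lower at the tip in 3 of 4 mice. That call was lost with the term for the mouse (−0.87 ± 0.41, adjusted p = 0.054), without mouse 2 (−1.02, 0.10) and without mouse 3 (−0.95, 0.18). Lymphocyte markers summed to 801 to 4935 CPM in the crypt cells and 8.89 to 252 CPM at the tip. Enteroendocrine markers had 35.5 to 3003 CPM in the crypt cells and 9.60 to 38.3 CPM at the tip, and tuft markers 128 to 534 and 49.9 to 79.6 CPM. The part of such cells in the Id2 difference was not tested. Id3 was at 66.7, 17.1, 35.9 and 74.6 CPM in the crypt and at 16.8, 32.4, 26.9 and 34.8 CPM at the tip, higher at the tip in 1 of 4 mice. Its sign turned with scaling, from 0.29 ± 0.37 with TMM (adjusted p = 0.52) to −0.78 ± 0.43 with library totals (0.13). Bmpr1a, with means of 24.0 CPM in the crypt and 13.3 CPM at the tip, gave −0.22 ± 0.48 with TMM (adjusted p = 0.71) and −1.25 with library totals (0.046). Smad6 had 5 UMIs in the crypt cells and 14 at the tip, Tgfbr2 had 8 and 3, and neither reached the filter.

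Cell types were compared with enterocyte-like cells over mice, with position along the villus unmatched. Of the 2555 enterocyte-like cells 1389 were tip cells, and these held 373 of the 387 Pmepa1 UMIs. From crypt to mid-villus to tip the enterocyte-like means were 3.21, 6.29 and 84.9 CPM for Pmepa1 and 9.27, 29.9 and 53.9 CPM for Smad7. Both genes are therefore also given below against enterocyte-like cells of the crypt and mid-villus only, with the filter at 3 counts that Smad7 needed there, an alternative chosen after seeing the data. In lymphocyte-like cells 2 of the 7 members tested were higher and 4 lower, among 4447 genes of which 30% were higher and 28.2% lower (58.3% changed). Tgfbr2 was at 106, 134 and 86.9 CPM in lymphocyte-like cells of mice 2 to 4, from 73, 78 and 20 UMIs, and at 0, 2.61, 3.75 and 2.63 CPM in enterocyte-like cells of mice 1 to 4. It passed the count filter only through the lymphocyte-like sums, as no other named type held more than 8 UMIs in a mouse. That it was tested, and so this call, is not independent of its level in these cells. The ranges lay far apart (log2 4.36 ± 0.49, adjusted p = 1.1e-08), although 72.8% of all genes had ranges that did not overlap in this comparison. Id2, which lymphoid cells of the innate kind need to develop, was at 442, 518 and 448 CPM against 6.90, 26.7, 31.0 and 16.3 CPM (3.29 ± 0.56, adjusted p = 7.0e-06).

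The other Id genes and the BMP receptor had the opposite sign there. Id1 was at 8.75, 5.16 and 0 CPM in lymphocyte-like cells and at 29.3, 56.7, 61.5 and 75.8 CPM in enterocyte-like cells (−4.51 ± 0.70, adjusted p = 1.9e-06). Id3 had means of 10.3 and 32.5 CPM (−2.83 ± 0.63, adjusted p = 3.2e-04), and Bmpr1a 4.36 and 14.8 CPM (−3.18 ± 0.64, adjusted p = 8.5e-05). These 5 calls were the same with library totals, which shifted the median of all genes by 1.43. Enterocyte markers had 888 to 2473 CPM in lymphocyte-like cells against 20771 to 32876 CPM in enterocyte-like cells, and the median lymphocyte-like cell held fewer UMIs than the median enterocyte-like cell (2836 UMIs).

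Pmepa1 and Smad7 did not separate these 2 cell types in a stable way. Smad7 was at 58.3, 48.2 and 39.1 CPM in lymphocyte-like and at 51.8, 46.3, 19.2 and 43.1 CPM in enterocyte-like cells, with overlapping ranges. The TMM-scaled test gave −1.36 ± 0.57 (adjusted p = 0.040), the term for the mouse −0.58 ± 0.39 (0.19), and library totals turned the sign to 0.42 ± 0.41 (0.37). Without mouse 1, 3 or 4 the adjusted p was 0.37, 0.059 and 0.14. Pmepa1 was at 70.0, 105 and 73.9 CPM against 67.7, 41.7, 11.3 and 74.7 CPM (−0.94 ± 0.63, 95% interval −2.23 to 0.35, adjusted p = 0.21). Against enterocyte-like cells of the crypt and mid-villus only, Pmepa1 was higher in lymphocyte-like cells (3.32 ± 0.48, adjusted p = 4.4e-10) and Smad7 did not pass (0.18 ± 0.41, adjusted p = 0.73). Smad6 had 1 UMI in lymphocyte-like cells and was not tested in any of the cell types.

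**Figure D5:**
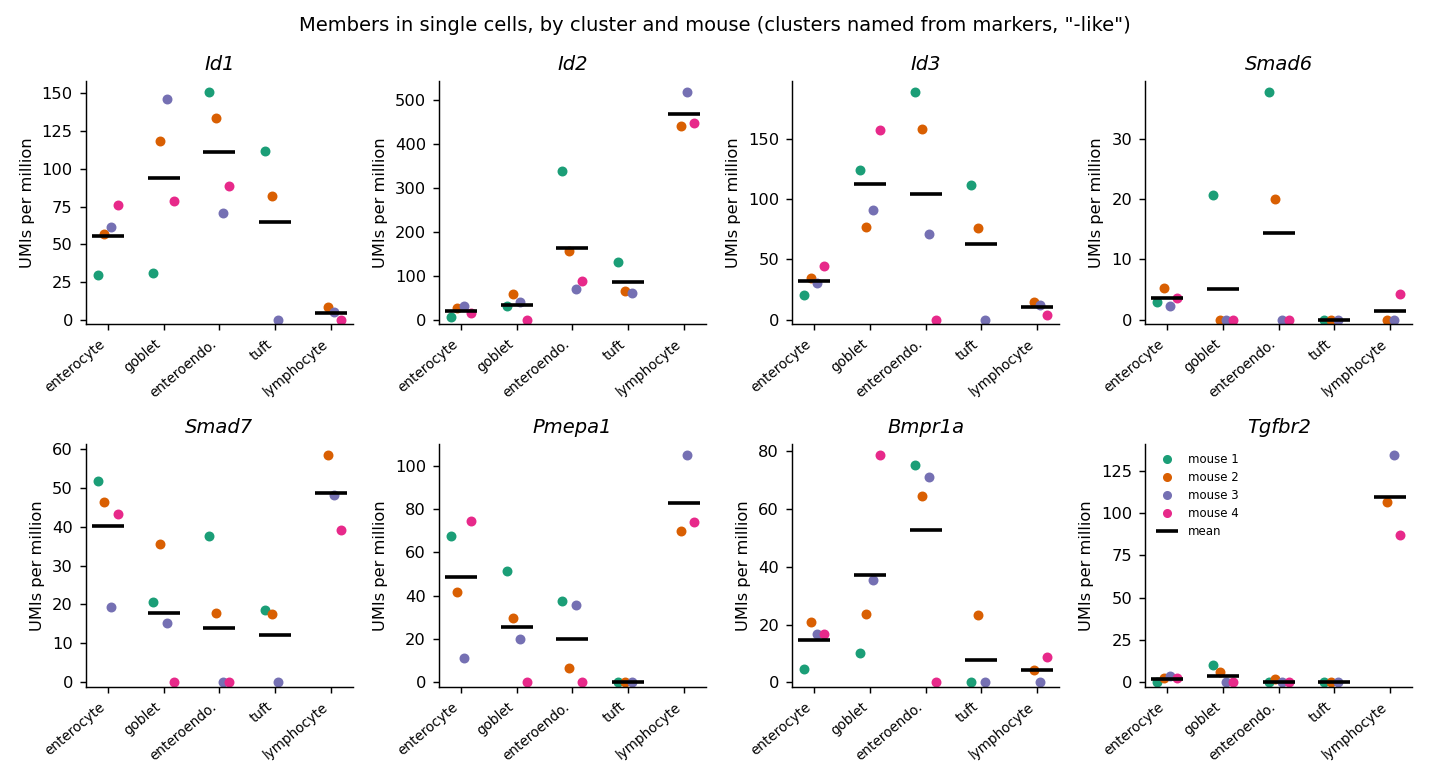
Level of each member (y axis, CPM) in the named clusters of single cells (x axis), 1 point per mouse and a black bar for the mean. Tgfbr2 and Id2 stand out in lymphocyte-like cells, with means of 109 and 469 against 2.25 and 20.2 in enterocyte-like cells, and Pmepa1 is at 0 in the 3 tuft-like sums.

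Smad7 was lower than in enterocyte-like cells in tuft-like, enteroendocrine-like and goblet-like cells, and Pmepa1 in tuft-like and enteroendocrine-like cells. None of these 5 calls remained against enterocyte-like cells of the crypt and mid-villus only, where Smad7 gave −1.17 ± 0.68 in tuft-like (adjusted p = 0.22), −1.19 ± 0.63 in enteroendocrine-like (0.17) and −0.35 ± 0.58 in goblet-like cells (0.75). Pmepa1 had an adjusted p of 0.14 in tuft-like cells there, a log2 difference of 0.50 ± 0.87 in enteroendocrine-like cells (0.75) and was higher in goblet-like cells (2.41 ± 0.66, adjusted p = 0.0034). With library totals and all enterocyte-like cells, only the tuft-like call of Pmepa1 remained among the 5. No Pmepa1 UMI was counted among 411076 UMIs of tuft-like cells, which allows up to 7.30 CPM (3 counts over the pooled sums, counting error only), so that the level was at least 6.69-fold lower than the mean of 48.9 CPM over all enterocyte-like cells (adjusted p = 4.2e-04). Mouse 2 gave 341303 of these UMIs, so the limit rests mostly on 1 mouse. That limit lies above the means of 3.21 and 6.29 CPM in crypt and mid-villus enterocyte-like cells, so a difference from these was not detectable at this depth. In tuft-like cells 2 of 7 members were lower and none higher, where 13.8% of all genes were lower and 10.1% higher (23.9% changed). Smad7 was the other, at 18.7, 17.6 and 0 CPM, below every enterocyte-like value as 33.3% of all genes were on 1 side or the other (−2.72 ± 0.84, adjusted p = 0.015). With library totals Pmepa1 still passed (adjusted p = 0.0026) and Smad7 did not (−1.19, 0.16). Id2 was at 131, 64.5 and 61.6 CPM in tuft-like cells, above the enterocyte-like range (1.00 ± 0.64, adjusted p = 0.31), and passed with library totals (2.12, adjusted p = 0.013). Id1 and Id3 had means of 64.7 and 62.7 CPM with 1 mouse at 0 (adjusted p = 0.58 and 0.97), Bmpr1a had 7.81 CPM (0.51), and no UMI of Tgfbr2 or Smad6 was counted in tuft-like cells.

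In enteroendocrine-like cells 1 of 7 members was higher and 2 were lower, where 10.7% of all genes were higher and 22.4% lower (33.1% changed). Pmepa1 was at 37.7, 6.69, 35.5 and 0 CPM, of which mice 1, 2 and 3 had 1, 3 and 1 UMIs (−3.81 ± 0.98, adjusted p = 0.0030), and Smad7 was at 37.7, 17.9, 0 and 0 CPM (−2.95 ± 0.79, adjusted p = 0.0039). Neither passed with library totals (−1.98, adjusted p = 0.072, and −1.12, 0.14), which shifted the median of all genes by 1.53. Id2 was at 339, 156, 71.1 and 88.5 CPM, above every enterocyte-like value in a comparison in which 23.7% of all genes did not overlap (1.63 ± 0.57, adjusted p = 0.027), from 9, 70, 2 and 1 UMIs. Without mouse 1 it had an adjusted p of 0.075 and without mouse 2 of 0.11. With library totals Id3 and Bmpr1a passed as well (2.06, adjusted p = 0.0023, and 2.15, 0.0094), against 0.46 and 0.73 with TMM. Id1 had a mean of 111 CPM against 55.8 CPM and was higher in 4 of 4 mice, but its sign turned with scaling, from −0.39 ± 0.56 with TMM (adjusted p = 0.65) to 1.18 ± 0.54 with library totals (0.078). Tgfbr2 had 1 UMI (adjusted p = 0.47) and Smad6 had 10 UMIs.

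In goblet-like cells 1 of 7 members was lower and none higher, where 15.3% of all genes were lower and 6.61% higher (21.9% changed). Smad7 was at 20.6, 35.6, 15.2 and 0 CPM (−1.91 ± 0.67, adjusted p = 0.038). It did not pass with DESeq2, with library totals or without mouse 1, 3 or 4, where the adjusted p was 0.14, 0.29, 0.24, 0.089 and 0.10, and it was not tested without mouse 2. Pmepa1 was at 51.6, 29.7, 20.2 and 0 CPM (−1.83 ± 0.73, adjusted p = 0.071), and with the term for the mouse it passed (−1.43 ± 0.51, adjusted p = 0.021). Id3 was at 124, 77.2, 91.0 and 157 CPM, above the enterocyte-like range of 20.7 to 44.2 CPM in 4 of 4 mice, a separation that 21.3% of all genes had. Its log2 difference was 0.84 ± 0.53 with TMM (adjusted p = 0.30) and 1.68 ± 0.48 with library totals (0.014). Id1 had a mean of 93.8 CPM (0.05 ± 0.52, adjusted p = 0.97), Id2 of 32.7 CPM (0.38 ± 0.60, 0.73) and Bmpr1a of 37.0 CPM (0.27 ± 0.55, 0.80), and Tgfbr2 (adjusted p = 0.93) and Smad6 had 2 UMIs each.

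Of the listed genes with the members included, 12 of the 19 tested were lower in lymphocyte-like cells and 3 higher, where 28.2% of all genes were lower and 30% higher. Their median log2 difference was −1.53, against 0.04 over all genes tested, and library totals shifted the latter by 1.43. Tgfb1, a TGF beta ligand, was at 47.0 CPM there and at 0.49 CPM in enterocyte-like cells (4.82 ± 0.58, adjusted p = 4.2e-08), and at 39.9 CPM in enteroendocrine-like cells (4.27 ± 0.71, adjusted p = 2.0e-05). Cdkn2b, an inhibitor of the cell cycle induced by TGF beta, fell from 36.2 to 2.21 CPM in lymphocyte-like cells (−4.78 ± 0.77, adjusted p = 3.3e-06). Smad1 (−2.13 ± 0.52, adjusted p = 8.5e-04) was lower there too. Tgfbi was at 72.3 CPM in enterocyte-like cells and at 1.26 CPM in goblet-like (−5.71 ± 0.82, adjusted p = 2.4e-06), 1.67 CPM in enteroendocrine-like (−4.93 ± 0.76, adjusted p = 4.8e-06) and 4.88 CPM in tuft-like cells (−3.72 ± 0.72, adjusted p = 1.2e-04). Bmp2 was higher in tuft-like cells, at 69.9 against 7.51 CPM (2.10 ± 0.57, adjusted p = 0.0050).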

How the data were processed

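The authors sorted clumps and single cells into 384-well plates, sequenced them by MARS-seq, demultiplexed with bcl2fastq 2.15.0.4 (per the labels), and aligned and counted with zUMIs and STAR on GRCm38. The authors deposited whole-number UMI counts per gene and well, 1 table for clumps (17162 wells, 45 plates) and 1 for single cells (16850 wells, 44 plates). Both tables use the same 384 well barcodes, which mark wells and not cells. Wells left empty for background are not named there, so no background was subtracted.

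Clumps with fewer than 200 genes, a mitochondrial share above 30% or no more than 500 UMIs were removed, as were the 2% poorest in landmark UMIs, and each of the rest took the zone whose landmark indicator correlated best with its landmark values. Mouse 6 (above 2n, 4 plates) was kept apart. Single cells had to hold between 200 and 7000 UMIs and between 150 and 1500 genes, with a mitochondrial share up to 40%, and were clustered (scanpy 1.11.5, igraph 0.11.9, 2000 variable genes, 25 components, 20 neighbors, Leiden resolution 0.1) and a cluster was named from at least 3 markers among its 50 leading genes. No doublet caller was run. Plates of mouse 2 labelled 3 and 4 months were summed together, and leaving out the latter was an alternative added after seeing the data, as was leaving tip and unzoned cells out of the enterocyte-like sums.

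Counts were summed per mouse and zone or type (at least 5 cells, otherwise left out) and tested with edgeR 4.0.16 (R 4.3.3; TMM, filterByExpr at 10 counts, quasi-likelihood, all zones or types in 1 fit), adjusted over all genes tested, threshold 0.05. On simulated counts the tip-against-crypt test of 6759 genes recovered 62% of 2-fold and 97% of 4-fold changes, the lymphocyte-like test of 3556 genes 22% and 54%, and the test of zones in single enterocyte-like cells, with 4412 genes, 36% and 94%. The simulated sums were independent, with a dispersion of 0.05 for every gene. Recovery in the real data is lower where the spread between mice is larger than that. Mice are numbered in the labels within each table, but single-cell mouse 2 has 13 plates labelled 3 months and 3 labelled 4 months, so its sums need not come from 1 animal. After group means were removed, sums of a mouse correlated at 0.174 to 0.571 in clumps (15 of 15 pairs over 0.1), at 0.00136 to 0.514 between cell types (23 of 32) and at 0.0592 to 0.443 between zones of enterocyte-like cells (9 of 12). Every member was named in every comparison. Of other listed genes, at most 4 of a list with the largest change among those passing from crypt to tip were named, at most 2 in other comparisons, and the 3 genes most like each member. Members and lists were chosen with earlier results of these data known. Gene positions are from GENCODE M21; no position is printed for Smad7. DESeq2 1.42.0, other scalings, filters, zone and cell rules and leaving out each mouse were alternatives.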

Additional observations from a re-analysis of the deposited data

Results flagged for a closer look

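Among 80 groups of 4 or 5 mice, 6 held a value that stood apart from the others by Dixon's ratio, and chance gives about 1 in 20 groups. Tgfbr2 was at 19.9 CPM in the tip clumps of mouse 4, from 2 UMIs. Smad6 was at 20.6 CPM in the goblet-like cells of mouse 1, also from 2 UMIs, and at 0 in the other mice. Bmpr1a was at 0 in the enteroendocrine-like cells of mouse 4, and Tgfbr2 was at 2.23 CPM in those of mouse 2, from 1 UMI, with the other mice at 0. Bmpr1a was at 4.21 CPM in the tip enterocyte-like cells of mouse 1, below the other mice. In the unnamed cluster Smad7 was at 2.14 CPM in mouse 3.

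Mouse 6, whose clumps were sorted above 2n, was outside the comparisons. Its tip clumps held 147026 UMIs, so that 3 counts correspond to 20.4 CPM, and levels above that were 68.0 CPM for Id1, 54.4 for Id3, 27.2 for Smad7 and 88.4 for Pmepa1 (13 UMIs). Its crypt clumps had 4.42 CPM of Pmepa1 and 35.3 CPM of Smad7. The tip value of Smad7 in mouse 6, from 4 UMIs, lay below its crypt value.

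The cluster of single cells led by hemoglobin, immunoglobulin and myeloid genes held 945307 UMIs in all, and 3 counts correspond to 3.17 CPM. Summed over mice it had 146 CPM of Id2, 37.0 of Tgfbr2, 28.6 of Pmepa1, 19.04 of Smad7, 5.29 of Id1 and 4.23 of Id3.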

How the results depend on the processing

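Pmepa1 and Smad7 at the tip against the crypt passed in clumps under all 18 alternatives, with log2 differences of 4.09 to 5.24 and of 2.34 to 3.18, and in single enterocyte-like cells under all 13. In lymphocyte-like cells the calls of Id1, Id2 and Id3 held under 15 of 15 alternatives and those of Bmpr1a and Tgfbr2 under 14 of 14, and the tuft-like call of Pmepa1 held under 12 of 14. The block for the mouse, where it changed a member's call, is printed beside the result, and it changed no other call of a member. Tip values rest on few UMIs, and the cell type sums of 11299 to 448157 UMIs in enteroendocrine-like cells limit what could be detected there. Library totals in place of TMM were added after seeing the data, as was leaving out the single-cell plates labelled 4 months, which changed no call of a member. So was comparing cell types with enterocyte-like cells of the crypt and mid-villus only, without and with the filter at 3 counts. There the Pmepa1 difference was 3.73 and 3.32 in lymphocyte-like, 2.63 and 2.41 in goblet-like and 0.65 and 0.50 in enteroendocrine-like cells, all reversed in sign, and its fitted value in tuft-like cells, which had no UMI, was −3.90 and −4.05 without a call. With that filter Smad7 was at 0.18 in lymphocyte-like, −0.35 in goblet-like, −1.19 in enteroendocrine-like and −1.17 in tuft-like cells, with no call, and 1605 genes were called in goblet-like, 1921 in tuft-like and 4386 in lymphocyte-like cells. The causes of the differences below were not tested.

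The Smad7 step from crypt to mid-villus did not pass in pairs only (0.94), with mouse 6 added (0.85) or without mouse 1 or mouse 3 (range without 1 mouse 0.97 to 1.65), and its step from mid-villus to tip did not pass with zones from z scores of landmark shares (1.16, adjusted p = 0.054, edgeR). In lymphocyte-like cells Smad7 reversed with library totals (0.42) and lost its call with the block (−0.58), with DESeq2 (−1.54), with no filter (−1.02) and without mouse 1, 3 or 4 (range −1.38 to −0.42). In goblet-like cells it lost its call with DESeq2 (−1.67), DESeq2 size factors (−1.67) and library totals (−0.84) and without mouse 1, 3 or 4 (range −1.78 to −1.13). With library totals Smad7 also lost its call in enteroendocrine-like (−1.12) and tuft-like cells (−1.19), as did Pmepa1 in enteroendocrine-like cells (−1.98) and Id1 between zones of enterocyte-like cells (0.25). Id2 in enteroendocrine-like cells lost its call with no filter (1.45) and without mouse 1 or 2 (range 1.29 to 2.08). Id2 between zones of enterocyte-like cells lost its call with the block (−0.87), DESeq2 (−0.91), DESeq2 size factors (−0.95), no filter (−0.92) and a filter at 3 counts (−1.03), and without mouse 2 or 3 (range −1.20 to −0.95).

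Counts of all genes called also moved. Tip against mid-villus gave 1069 genes, and 2183 with the block for the mouse, 691 with no filter, 319 with zones from z scores, 560 in pairs only and 414 to 1273 without 1 mouse, with the fewest calls without mouse 1, 2 or 3. In pairs only, tip against crypt gave 2417 genes in place of 3864 and mid-villus against crypt 1503 in place of 2976, the latter 1851 to 3310 without 1 mouse. With no filter or a filter at 3 counts, goblet-like cells gave 1489 and 1670 genes (976 in the tests above), enteroendocrine-like 3041 and 2487 (1472), tuft-like 2028 and 1885 (1063) and lymphocyte-like 6447 and 4722 (2591). The ranges without 1 mouse were 375 to 1118, 448 to 1907, 310 to 1479 and 1077 to 3993, the lowest without mouse 2. Zones of enterocyte-like cells gave 4471 genes with no filter in place of 2621.

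The share of higher genes among those called moved with scaling. From TMM to library totals it went from 44.0% to 30.1% at the tip against the crypt (34.3% with DESeq2), from 42.3% to 35.3% in the mid-villus (30.6% with DESeq2), from 48.3% to 26.7% at the tip against the mid-villus (80.9% with zones from z scores, and 65.0%, 63.5% and 59.4% without mouse 1, 2 or 3), and from 52.5% to 18.1% between zones of enterocyte-like cells. In goblet-like, enteroendocrine-like, tuft-like and lymphocyte-like cells it went from 30.1% to 61.9%, from 32.3% to 84.0%, from 42.2% to 79.1% and from 51.6% to 78.2%.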

Other observations

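Of 8 BMP ligands 7 did not reach the count filter in clumps, and their values were described after they had been seen. Without a filter on low counts, Bmp8a and Bmp8b rose from crypt to tip, Bmp3 fell, and Bmp4, Bmp5, Bmp6 and Bmp7 did not pass between these zones (edgeR quasi-likelihood test). Bmp8b had 12 UMIs over all crypt sums, 3 over mid-villus sums and 36 over tip sums. Its tip level had a low of 9.37, a median of 14.8 and a high of 33.7 CPM over 5 mice, and its crypt level stayed between 0 and 0.58 CPM. Bmp8a had 17, 8 and 63 UMIs in the same order, with a tip median of 32.0 CPM and 1 mouse at 0. The log2 difference between tip and crypt was 5.80 ± 0.75 for Bmp8b (adjusted p = 3.7e-07) and 5.83 ± 0.65 for Bmp8a (adjusted p = 3.5e-08). How reads were split between these close paralogs is uncertain. Bmp3 had a mean of 11.8 CPM in the crypt (352 UMIs), 1.68 CPM in the mid-villus (11 UMIs) and 2.25 CPM at the tip (2 UMIs), and was lower at the tip (−2.81 ± 0.93, adjusted p = 0.029) and in the mid-villus (−2.45 ± 0.63, adjusted p = 0.0051). Bmp7 had 139 UMIs in the crypt (mean 3.73 CPM), 1 in the mid-villus and 0 at the tip, with an adjusted p of 0.016 in the mid-villus and of 0.069 at the tip. Bmp4, Bmp5 and Bmp6 had at most 10 UMIs in any zone.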
